A study of Rattus norvegicus with 9 samples.

Results

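The extracellular matrix and the proteins that bind and cut it were examined in brain cortex of rats kept at 3 simulated altitudes. The genes were all those whose platform symbol names a collagen chain, a laminin chain, an integrin subunit, a matrix metalloproteinase (MMP), a tissue inhibitor of metalloproteinases (TIMP) or a member of the ADAMTS and ADAMTS-like group, with 1 probe per gene. The rule found 83 genes among 22523 probes, of which 13353 carry a gene symbol (13311 distinct symbols). They are 25 collagens, 5 laminins, 14 integrins, 20 MMPs, 3 TIMPs, 13 ADAMTS or ADAMTS-like genes and 3 genes that match by name alone. These last 3, Itgb1bp1, Itgb1bp2 and Itgb3bp, encode proteins named for binding an integrin tail and are no integrins, so they were kept in a class of their own. The probes were measured on 9 Illumina 1-colour bead arrays, 3 of rats at simulated sea level (normoxia), 3 at a simulated altitude of 3 km and 3 at 7 km (both called hypoxia in the series description). No source used here gives strain, sex, age, length of exposure or whether the replicates are separate animals, so p-values measure only the spread between samples, which may be technical.

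Collagens, laminins and proteoglycans form the scaffold outside cells. In brain the fibrous collagens lie mainly in the meninges and around large vessels, while collagen IV and laminins build the basement membrane under endothelium and around pericytes. Integrins are pairs of an alpha and a beta chain that hold cells to this scaffold and signal from it. MMPs and ADAMTS proteases cut matrix proteins, and TIMPs block MMPs. The collagen IV sheet and its proteases are known for their part in the growth of brain capillaries and in the opening of the blood-brain barrier.

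Sea level replicate 3 stood apart from the other 8 arrays. Its Spearman correlation with them was 0.642 to 0.660, against 0.969 to 0.978 among the 8, and it had 8170 probes with a detection p-value below 0.05, against 5881 to 6621. Differences from sea level are therefore given with and without it, as 9 arrays and 8 arrays, with no judgement on which arrays are sound. To check the tissue label, markers of excitatory cortical neurons were read: all 8 excitatory neuron markers on the array were above background on at least 1 array, 3 of them on all 9. The summed intensity of the striatum markers ranged from 1973 to 6738 at sea level, 9984 to 13630 at 3 km and 3511 to 10660 at 7 km, so the arrays also differed in RNA of striatal markers. The oligodendrocyte markers summed to 5300 to 6171 at sea level, 4028 to 6167 at 3 km and 2382 to 3726 at 7 km. At 7 km the 6 tested ones were all lower than at sea level with 9 arrays. With 8 arrays 5 were lower and 1 higher, and 0 were called in either fit. In bulk tissue, fewer cells of a type and less RNA per cell cannot be told apart.

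Most of the matrix genes were not above background in this tissue. Of the 83, 49 (59%) had a detection p-value below 0.05 on 0 of the 9 arrays, against 48.4% of all probes with a gene symbol. Detection on all 9 arrays was found for 8 of the genes (9.64%), against 25.8% of named probes. These were Col1a2, Col6a1, Lamb2, Itgb1, Itgb5, Mmp14, Timp2 and Itgb1bp1. A further 5, Col4a3, Col4a5, Col11a2, Mmp1 and Mmp3, were detected on the 8 other arrays but not on sea level replicate 3 (6.02%, against 4.12% of named probes). In the opposite pattern, 14 genes (16.9%) were detected on sea level replicate 3 alone, against 12.8% of named probes. They are Col4a4, Col5a1, Col8a1, Col14a1, Col27a1, Itga7, Itgb4, Itgb7, Mmp11, Mmp13, Mmp15, Mmp27, Adamts9 and Itgb3bp. Altitude did not order the number of genes detected: it was 17, 16 and 26 on the sea level arrays, 14, 16 and 15 on the 3 km arrays and 14, 15 and 18 on the 7 km arrays.

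**Figure D1:**
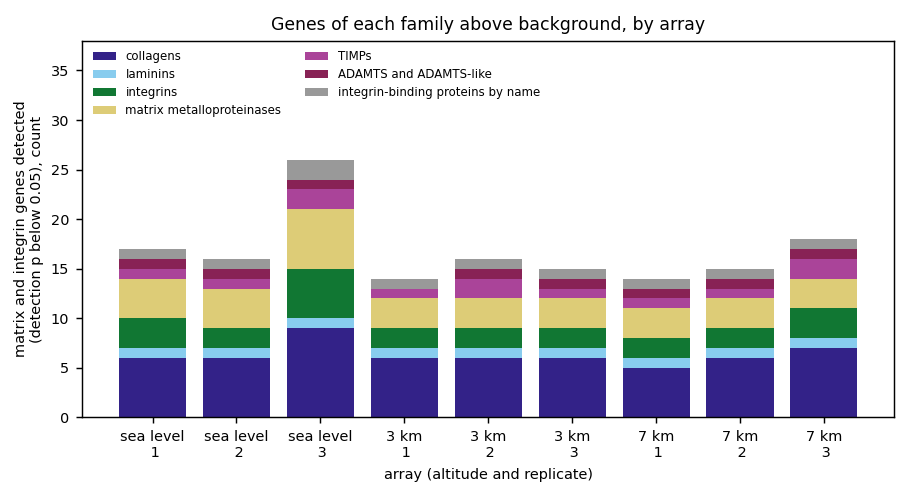
Number of the 83 genes with a detection p-value below 0.05 on each array (x axis: altitude and replicate), stacked by family. Sea level replicate 3 has 26 genes detected and the other 8 arrays have 14 to 18.

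The test needed detection on at least 3 arrays, which 17 of the 83 genes reached with 9 arrays (20.5%, against 36.4% of named probes) and 15 with 8 arrays, when Mmp9 and Timp1 dropped out. None of them passed in any comparison. At 7 km against sea level, limma called 0 of 17 genes at an adjusted p of 0.05 with 9 arrays, where 0.12% of all tested probes were called, and 0 of 15 with 8 arrays, where 0.308% were called. At 3 km against sea level and at 7 km against 3 km it called 0 of 17 and 0 of 15, as it did for all tested probes (0% in each). The moderated F test over the 3 altitudes also called 0 genes, with 0% of all probes called. At an unadjusted p under 0.05 were 1 of the 17 genes at 3 km against sea level (8.07% of all probes), 0 at 7 km (11.4%), 0 between the 2 altitudes (2.7%) and 0 in the F test (7.54%). With 8 arrays the counts of 15 were 1 at 3 km (9.48% of all probes), 1 at 7 km (12.5%), 0 between the altitudes (8.19%) and 1 in the F test (11.2%). A value that misses the threshold does not show that the altitudes were alike.

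For some of the matrix genes the groups did not overlap. At 7 km, all 3 arrays lay above all 3 sea level arrays for 3 of the 17 genes, where 12.2% of all tested probes did so, and below them for 1, where 12.5% did so. At 3 km against sea level the counts were 0 above (8.8% of all probes) and 2 below (10.7%). At 7 km against 3 km they were 2 above (5.93%) and 0 below (7.71%). With 8 arrays the counts of 15 at 7 km were 4 above (16.3%) and 1 below (16.1%). At 3 km they were 1 above (15%) and 2 below (15.6%), and between the altitudes 2 above (5.95%) and 0 below (7.68%). With so few genes, these counts are near the background. The median log2 difference over the 17 genes was 0.06 at 7 km, 0.03 at 3 km and 0.02 between 7 km and 3 km, against -0.01, 0 and 0 over all tested probes. Without sea level replicate 3 the medians over 15 genes were 0.01, 0 and 0.01, against 0 for each over all probes.

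Most of these probes are dim, and the background correction draws dim values together. The spread of the negative controls inferred from the detection p-values was 15 on sea level replicate 3 and 382 to 570 on the other arrays, and the lowest normalized value was 7.26 on the log2 scale. For that reason differences on the uncorrected scale (quantile normalized log2 signals with no background subtracted) are also given for some genes. The size of a difference depended on the processing. Across the alternative settings the 7 km difference ranged from 0.04 to 1.45 for Col4a5 and from 0.04 to 1.42 for Mmp3. For Col5a2 it ranged from -0.46 to -0.02. Small differences on the normalized scale are therefore no measure of the change in RNA. All levels below are normalized log2 intensities unless the uncorrected scale is named, and values after ± are standard errors of the limma fit.

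**Figure D2:**
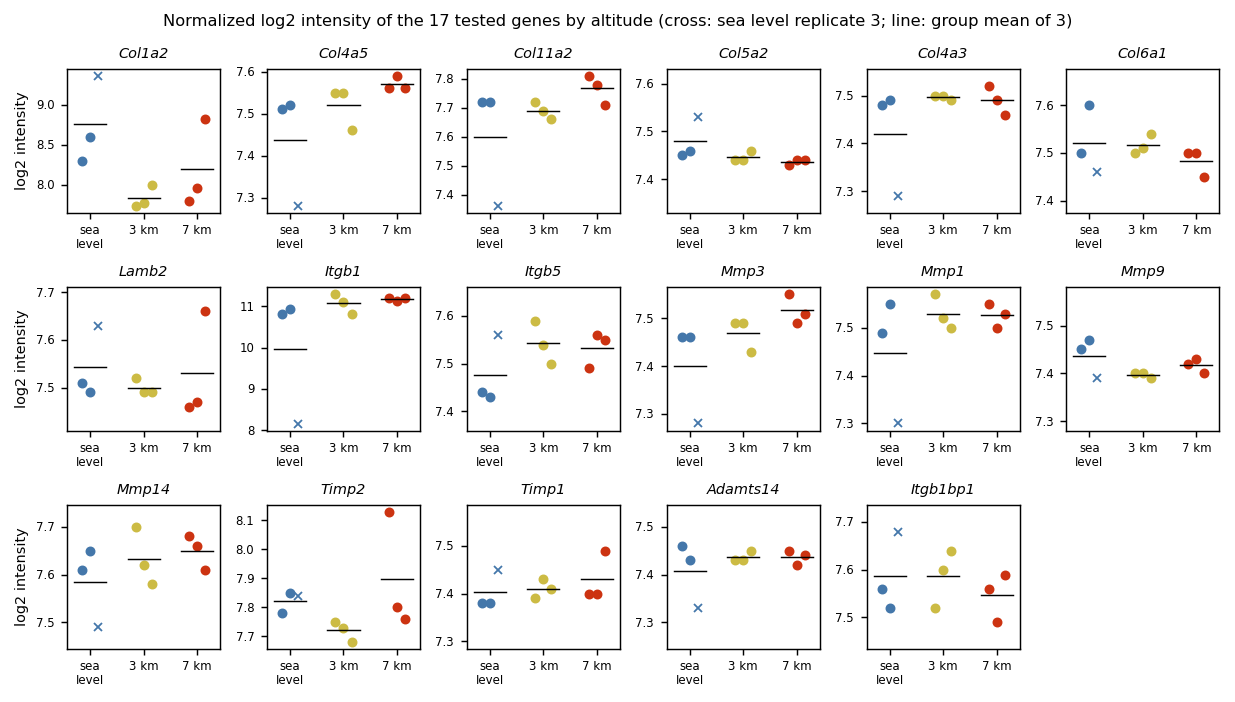
Normalized log2 intensity (y axis, with its own range in each panel) of the 17 tested genes on each array by altitude (x axis). Crosses mark sea level replicate 3 and lines are means of 3 arrays; in Col4a5, Col11a2, Col4a3, Itgb1, Mmp3, Mmp1, Mmp14 and Adamts14 the cross lies below every other point.

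The start of 4 genes is shown because the results below turn on them: Col1a2 and Col4a5, which were among the 3 tested genes with the smallest F test p-values, and Adamts1 and Col4a1, which were added after their values were seen. The 300 bases run from 250 before to 50 after the gene start in RefSeq's rat assembly GRCr8, and the capitals mark ACGTG or GCGTG, the core of the hypoxia response element that hypoxia-inducible factors bind. Both strands were searched, and CACGTG would count as ACGTG on both. Col1a2 lies at chr4:33518307-33518606 on the plus strand and held 0 matches.
Col1a2: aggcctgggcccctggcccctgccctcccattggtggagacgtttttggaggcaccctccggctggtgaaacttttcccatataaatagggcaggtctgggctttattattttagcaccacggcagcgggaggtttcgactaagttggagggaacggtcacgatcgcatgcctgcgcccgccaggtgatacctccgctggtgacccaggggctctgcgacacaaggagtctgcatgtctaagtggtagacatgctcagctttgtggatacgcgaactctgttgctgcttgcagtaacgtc
Col4a5 lies at chrX:109907109-109907408 on the plus strand and held 2 ACGTG matches.
Col4a5: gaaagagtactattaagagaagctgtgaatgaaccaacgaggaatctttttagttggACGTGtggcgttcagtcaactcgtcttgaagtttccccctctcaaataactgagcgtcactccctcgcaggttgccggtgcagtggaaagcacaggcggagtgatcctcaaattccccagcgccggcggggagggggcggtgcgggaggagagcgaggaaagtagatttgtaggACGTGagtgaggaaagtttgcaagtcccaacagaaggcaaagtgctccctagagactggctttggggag
Adamts1 lies at chr11:38427335-38427634 on the minus strand and held 1 GCGTG match.
Adamts1: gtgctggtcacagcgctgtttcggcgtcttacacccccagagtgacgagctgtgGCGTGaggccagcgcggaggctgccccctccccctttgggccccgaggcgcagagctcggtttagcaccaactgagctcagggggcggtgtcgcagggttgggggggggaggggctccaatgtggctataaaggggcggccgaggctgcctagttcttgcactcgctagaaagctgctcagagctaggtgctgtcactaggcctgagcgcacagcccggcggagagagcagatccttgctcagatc
Col4a1 lies at chr16:84885347-84885646 on the plus strand and held 1 GCGTG match.
Col4a1: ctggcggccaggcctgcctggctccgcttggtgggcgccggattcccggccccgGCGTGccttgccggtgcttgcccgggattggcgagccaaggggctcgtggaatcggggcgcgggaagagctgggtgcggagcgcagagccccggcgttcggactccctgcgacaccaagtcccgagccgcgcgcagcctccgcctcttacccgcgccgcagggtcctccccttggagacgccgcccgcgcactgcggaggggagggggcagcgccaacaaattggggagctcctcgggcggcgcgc
Mmp3, the other gene of the 3, held 0 matches. Of the 83 genes 66 had an entry, and 30 of those (45.5%) held either motif, against 41.6% of all 33469 promoters in the table. ACGTG was in 9 of the 66 (13.6%), against 19.3% of all promoters, and GCGTG in 23 (34.8%), against 29.7%. A match is a run of letters and not a site in use.

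Among the collagens, the fibrillar chain Col1a2 had the largest differences, and they did not pass. Col1a2 encodes the alpha 2 chain of collagen I, the main fibre of meninges and vessel walls. Its level was 8.30, 8.60 and 9.36 on the sea level arrays, 7.73, 7.77 and 8.00 on the 3 km arrays, and 7.80, 7.96 and 8.82 on the 7 km arrays. All 3 km arrays lay below all sea level arrays, while the 7 km arrays overlapped both groups. The log2 difference at 3 km was -0.92 ± 0.34 (limma, adjusted p = 0.533), the only one of the 17 genes with an unadjusted p under 0.05 there, and at 7 km it was -0.56 ± 0.34 (adjusted p = 0.423). Without sea level replicate 3 these were -0.55 ± 0.28 (adjusted p = 0.617) and -0.22 ± 0.28 (adjusted p = 0.785). The promoter shown above for Col1a2 holds neither motif.

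Markers of meninges and fibroblasts had their highest sum on the array with the most Col1a2. Their summed intensity was 8147, 8459 and 15020 on the sea level arrays, 7533, 8132 and 9499 on the 3 km arrays, and 5844, 7881 and 11580 on the 7 km arrays. In each group the array with the highest Col1a2 also had the highest marker sum. Markers of choroid plexus and ependyma summed to 3845 on sea level replicate 3, the array with the highest Col1a2, and to 473.6 to 521.1 on the other 8. Of the 10 meninges and fibroblast markers on the array 9 were detected on at least 1 array and Aldh1a2 on 0. Of the 7 tested, 2 were higher and 5 lower at 7 km with 9 arrays, and 4 higher and 3 lower with 8. At 3 km 2 were higher and 5 lower in both fits. Of the 7 choroid plexus and ependyma markers 3 were detected, 0 of them on all 9 arrays, and Clic6, Folr1, Kcne2 and Aqp1 on 0 arrays. With 9 arrays 1 was tested, at -1.66 at 7 km, and with 8 arrays 0 were. The sum thus rests on few probes and does not stand for the list as a whole. The part of either list in the Col1a2 result was not tested.

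The basement membrane chains Col4a3 and Col4a5 and the cartilage-type chain Col11a2 shared 1 feature, a low value on sea level replicate 3. Col4a5, which joins Col4a3 and Col4a4 in the alpha 3, 4, 5 network of collagen IV, read 7.51, 7.52 and 7.28 at sea level, 7.55, 7.55 and 7.46 at 3 km, and 7.56, 7.59 and 7.56 at 7 km. The 7 km arrays lay above all others, by 0.13 ± 0.065 over sea level (adjusted p = 0.414), and by 0.04 ± 0.023 without sea level replicate 3 (adjusted p = 0.57). Col11a2, a minor fibrillar chain best known from cartilage, read 7.72, 7.72 and 7.36 at sea level, 7.72, 7.69 and 7.66 at 3 km, and 7.81, 7.78 and 7.71 at 7 km. Its difference at 7 km was 0.17 ± 0.095 with 9 arrays and 0.03 ± 0.026 with 8 (limma, adjusted p = 0.419 and 0.627). Col4a3 read 7.48, 7.49 and 7.29 at sea level, 7.50, 7.50 and 7.49 at 3 km, and 7.52, 7.49 and 7.46 at 7 km. Taking out sea level replicate 3 brought its difference at 7 km to 0.00 ± 0.016, against 0.07 ± 0.054 with 9 arrays.

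Col5a2, a chain of the collagen V that seeds collagen I fibres, showed the reverse. It read 7.45, 7.46 and 7.53 at sea level, 7.44, 7.44 and 7.46 at 3 km, and 7.43, 7.44 and 7.44 at 7 km. All 7 km arrays lay below all sea level arrays, by a log2 difference of -0.05 ± 0.029 (limma, adjusted p = 0.426), or -0.02 ± 0.013 with 8 arrays. Col6a1, a chain of the beaded microfibrils of collagen VI, differed at 7 km by -0.04 ± 0.041, or -0.05 ± 0.026 with 8 arrays, with overlapping groups. Over the 6 tested collagens 3 were higher and 3 lower at 7 km in both fits, with a median of 0.01 with 9 arrays and -0.01 with 8. The main fibrillar chains Col1a1 and Col3a1 were detected on 0 arrays, as were Col18a1 and Col15a1, the collagens of vessel basement membranes from which angiogenesis inhibitors are cut.

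A single laminin, Lamb2, was above background. It encodes the beta 2 chain found in vascular and synaptic basement membranes. Its level was 7.51, 7.49 and 7.63 at sea level, 7.52, 7.49 and 7.49 at 3 km, and 7.46, 7.47 and 7.66 at 7 km. The groups overlapped, and the difference at 7 km was -0.01 ± 0.062 with 9 arrays and 0.02 ± 0.045 with 8 (limma, adjusted p = 0.895 and 0.883). Lama1, Lamb3, Lamc1 and Lamc3 were detected on 0 arrays.

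Itgb1, the beta 1 chain shared by most matrix-binding integrins, was the integrin with the largest difference, and most of its size came from 1 array. It read 10.80, 10.94 and 8.15 at sea level, 11.30, 11.11 and 10.82 at 3 km, and 11.20, 11.13 and 11.20 at 7 km. Only sea level replicate 3 was far below the rest. The difference at 7 km was 1.21 ± 0.68 with 9 arrays (limma, adjusted p = 0.419) and 0.31 ± 0.14 with 8 (adjusted p = 0.425). At 3 km it was 1.11 ± 0.68 and 0.21 ± 0.14. All 3 arrays at 7 km lay above all sea level arrays in both fits, while the 3 km arrays overlapped sea level.

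Itgb5, the beta 5 chain that pairs with alpha V to bind vitronectin, came closest to the threshold among tested genes once sea level replicate 3 was left out. It read 7.44, 7.43 and 7.56 at sea level, 7.59, 7.54 and 7.50 at 3 km, and 7.49, 7.56 and 7.55 at 7 km. All 6 hypoxia arrays lay above sea level replicates 1 and 2, and replicate 3 lay among them. With 8 arrays the difference was 0.07 ± 0.025 at 7 km (limma, adjusted p = 0.315) and 0.08 ± 0.025 at 3 km (adjusted p = 0.395), both with an unadjusted p under 0.05. With 9 arrays it was 0.06 ± 0.046 at both altitudes. Under median scaling it was -0.46 at 7 km and -0.41 at 3 km, above the median of all probes of -0.64 and -0.55 there. On the uncorrected scale with 8 arrays and no filter the differences were 0.42 ± 0.10 (adjusted p = 0.161) and 0.44 ± 0.10 (adjusted p = 0.168).

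Of the alpha chains on the array none reached 3 arrays. Itga1, the collagen-binding alpha 1 chain, was detected on 1 array at 7 km and 1 at sea level. On the uncorrected scale it read 7.86, 7.64 and 7.41 at sea level, 7.49, 7.56 and 7.50 at 3 km, and 7.78, 7.80 and 7.89 at 7 km. The 7 km arrays lay above the 3 km arrays and overlapped sea level. As no 3 km array was above background and the bound was under 1, no fold is given. Itga2, Itga4, Itga5, Itga8, Itga10, Itga11, Itgb6 and Itgb8 were detected on 0 arrays. Itgb1bp1, which encodes a protein that binds the beta 1 tail and is no integrin, differed at 7 km by -0.04 ± 0.054 with 9 arrays and 0.01 ± 0.033 with 8, so its sign turned without sea level replicate 3.

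The secreted MMPs that were detected read close to background, and none passed. Mmp3, stromelysin 1, which cuts many matrix proteins and activates other MMPs, had the smallest p of the family. It read 7.46, 7.46 and 7.28 at sea level, 7.49, 7.49 and 7.43 at 3 km, and 7.55, 7.49 and 7.51 at 7 km. All 7 km arrays lay above all sea level arrays, by 0.11 ± 0.054 (limma, adjusted p = 0.414), and by 0.04 ± 0.02 with 8 arrays (adjusted p = 0.503). Mmp1, the interstitial collagenase, read 7.49, 7.55 and 7.30 at sea level, 7.57, 7.52 and 7.50 at 3 km, and 7.55, 7.50 and 7.53 at 7 km. Its difference at 7 km was 0.08 ± 0.063 with 9 arrays and 0.00 ± 0.022 with 8. Mmp14, the membrane-bound MMP that activates pro-Mmp2, read 7.61, 7.65 and 7.49 at sea level, 7.70, 7.62 and 7.58 at 3 km, and 7.68, 7.66 and 7.61 at 7 km. The groups overlapped, with differences at 7 km of 0.06 ± 0.05 and 0.01 ± 0.029 with 9 and 8 arrays. Mmp2, the gelatinase it activates, was detected on 0 arrays.

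Mmp9, gelatinase B, which degrades collagen IV and is known for its part in the opening of the blood-brain barrier, was detected on 0 of the 6 hypoxia arrays and on all 3 sea level arrays. Its detection p-values were all near the threshold, from 0.0194 to 0.0703. It read 7.45, 7.47 and 7.39 at sea level, 7.40, 7.40 and 7.39 at 3 km, and 7.42, 7.43 and 7.40 at 7 km. Groups overlapped through sea level replicate 3, and the differences were -0.02 ± 0.03 at 7 km and -0.04 ± 0.03 at 3 km (limma, adjusted p = 0.625 and 0.535). Mmp9 reached the test through the sea level arrays alone. These fitted differences involve hypoxia groups that were not above background, and they are no bounds. Set against the lowest detected level, the sea level mean gave at least 1.01-fold lower Mmp9 at 3 km, so the change in detection carries almost no bound. On the uncorrected scale with 8 arrays and no filter the differences were -0.25 ± 0.075 (adjusted p = 0.293) and -0.35 ± 0.075 (adjusted p = 0.136).

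No TIMP passed the test. Timp2, which blocks MMPs and also takes part in the activation of pro-Mmp2 by Mmp14, read 7.78, 7.85 and 7.84 at sea level, 7.75, 7.73 and 7.68 at 3 km, and 8.13, 7.80 and 7.76 at 7 km. All 3 km arrays lay below all sea level and all 7 km arrays. The difference was -0.11 ± 0.092 at 3 km against sea level (limma, adjusted p = 0.555), or -0.08 ± 0.091 with 8 arrays, and at 7 km against 3 km it was 0.18 ± 0.092 (adjusted p = 1). The value at 7 km came mostly from replicate 1. Timp1, the inducible inhibitor, was detected on 1 array of each group and differed at 7 km by 0.02 ± 0.037 with 9 arrays, and it was too dim for the test with 8. Timp3, which is bound to the matrix, was detected on 0 arrays.

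**Figure D3:**
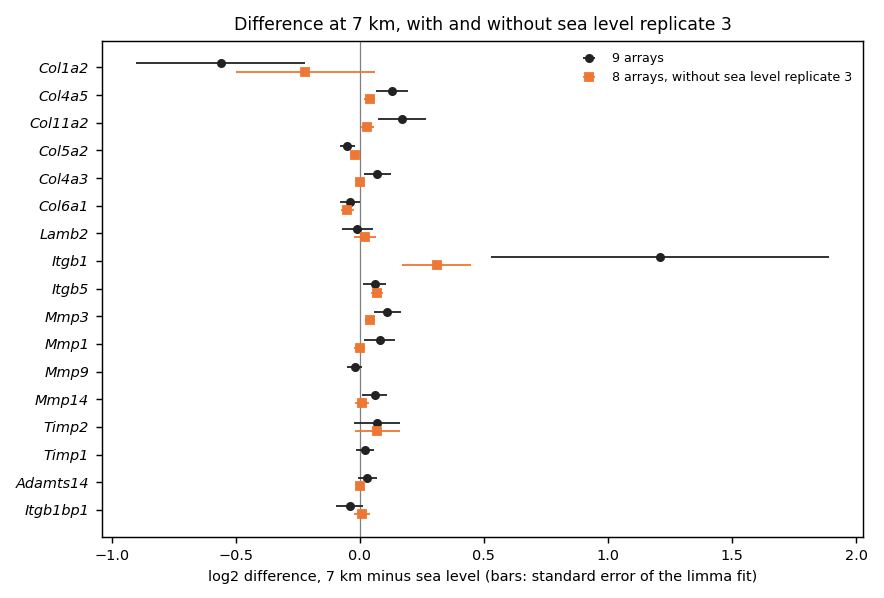
Log2 difference at 7 km minus sea level (x axis) for the 17 tested genes, with 9 arrays (circles) and, for 15 of them, with 8 arrays (squares); bars are standard errors. The Itgb1 difference is 1.21 with 9 arrays and 0.31 with 8, and every gene other than Itgb1 and Col1a2 lies within 0.2 of 0 in both fits. The values are background corrected, which draws dim genes together.

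In the ADAMTS group 1 gene was tested. Adamts14, a procollagen N-proteinase, was detected on 2 arrays of each group. It read 7.46, 7.43 and 7.33 at sea level, 7.43, 7.43 and 7.45 at 3 km, and 7.45, 7.42 and 7.44 at 7 km. Its difference at 7 km was 0.03 ± 0.038 with 9 arrays and 0.00 ± 0.016 with 8 (limma, adjusted p = 0.602 and 0.93).

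Adamts1, a protease that cuts aggrecan and versican and is known to restrain angiogenesis, was left out of the test by its dim signal, and its uncorrected level was highest at 7 km. It was detected on 1 array, 7 km replicate 2 (detection p-value 0.0436). The deposited signals of its probe were 117.6, 99.23 and 205.1 on the sea level arrays, 202.7, 230.9 and 135.8 on the 3 km arrays, and from 223.4 upwards on the 7 km arrays. All 7 km arrays lay above all sea level arrays in these signals. On the uncorrected scale the levels were 7.00, 6.89 and 7.22 at sea level, 7.50, 7.64 and 7.20 at 3 km, and 7.79, 8.04 and 7.85 at 7 km. On that scale the 7 km arrays lay above all 3 km and sea level arrays, and the 3 km arrays overlapped sea level through sea level replicate 3.

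The size of the Adamts1 difference depended on the background. With no background correction and no filter it was 0.86 ± 0.14 at 7 km with 9 arrays (limma, adjusted p = 0.13). With 8 arrays it rose by 1.04 ± 0.13 (adjusted p = 0.00683, with 0.373% of all 22523 probes called). At 3 km the 8-array difference was 0.55 ± 0.13 (adjusted p = 0.183). After background correction the 7 km difference was 0.12 with 9 arrays (adjusted p = 0.246 in the fit with no filter), and against the lowest detected level it was at least 1.02-fold higher, or at least 1.01-fold with 8 arrays. The fitted differences are against sea level arrays that were not above background and are no bounds. Adamts1 was tested only in the settings with no filter. Among these, the call was made only on the uncorrected scale and without sea level replicate 3. That setting was chosen after the data were seen. The F test called Adamts1 there too (adjusted p = 0.0179, with 0.346% of all probes called).

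Col4a1, the main collagen IV chain of vessel basement membranes, was the only other of the 83 genes called in that setting. At 3 km against sea level and at 7 km against 3 km it called 0 of the 83, where 0.253% and 0.00444% of all probes were called. It was detected on 7 km replicate 3 and sea level replicate 3. On the uncorrected scale it read 7.31, 7.25 and 7.74 at sea level, 7.75, 7.65 and 7.61 at 3 km, and 7.78, 7.59 and 7.89 at 7 km. The hypoxia arrays lay above sea level replicates 1 and 2 but overlapped replicate 3. The difference at 7 km was 0.52 ± 0.094 with 8 arrays (limma, adjusted p = 0.0472) and 0.32 ± 0.14 with 9 (adjusted p = 0.568). At 3 km with 8 arrays it was 0.43 ± 0.094 (adjusted p = 0.141). After background correction, with no filter, the 7 km difference was 0.05 ± 0.012 with 8 arrays (adjusted p = 0.327) and 0.04 ± 0.02 with 9 (adjusted p = 0.609). Neither sea level replicate 1 nor 2 was above background, and against the lowest detected level Col4a1 had no bound above 1 at 7 km with 8 arrays.

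Endothelial markers had a higher summed intensity on the hypoxia arrays, and not every marker did. The sum was 2421, 2162 and 2043 at sea level, 4685, 2979 and 3305 at 3 km, and 2983, 4451 and 5053 at 7 km, with no overlap between either altitude and sea level. Of the 8 markers on the array 5 were detected on at least 1 array, and the defining markers Cdh5, Flt1 and Tek were detected on 0. Of the 4 tested, 3 were higher and 1 lower at each altitude than at sea level. At 7 km 0 passed, where 0.12% of all tested probes did so with 9 arrays and 0.308% with 8. The lower marker was Emcn, the sialoprotein endomucin, at -0.21 at 7 km and -0.16 at 3 km, with all hypoxia arrays below all sea level arrays. Of all tested probes 12.5% lay below all sea level arrays at 7 km and 10.7% at 3 km. The sum of the pericyte and smooth muscle markers was 506 to 510.4 at sea level, 511 to 512.1 at 3 km and 505.5 to 515.1 at 7 km. Of these 7 markers 3 were detected, 0 on all 9 arrays, and 1 was tested. They read near the lowest normalized level, so the flat sum does not show that these cells were unchanged. The part of the endothelial markers in the Adamts1, Col4a1 and Itgb1 values was not tested.

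**Figure D4:**
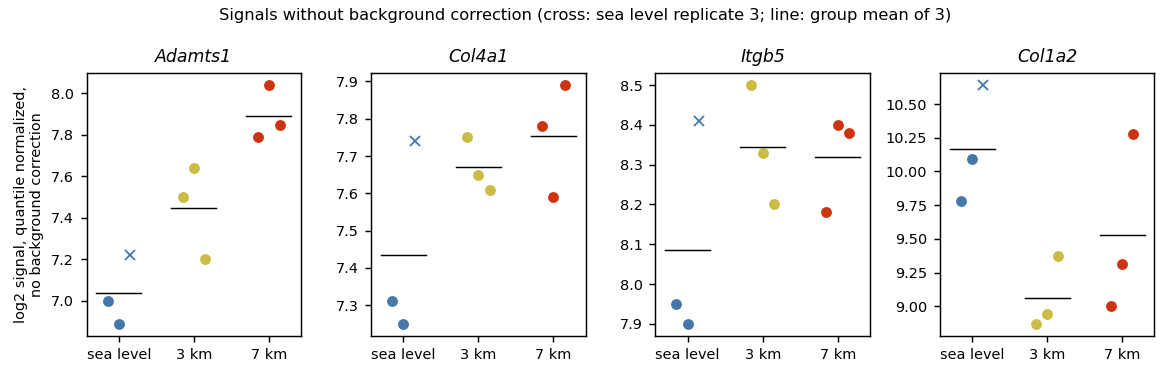
Quantile normalized log2 signal with no background correction (y axis, with its own range in each panel) of Adamts1, Col4a1, Itgb5 and Col1a2 by altitude (x axis); crosses mark sea level replicate 3 and lines are means of 3 arrays. Adamts1 reads 6.89 to 7.22 at sea level and 7.79 to 8.04 at 7 km, while for Col4a1 and Itgb5 the cross lies among the hypoxia arrays.

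Other genes of the matrix were followed through 3 lists. The genes named from them had the smallest F test p-values, a choice that favours groups that do not overlap. With 9 arrays, 12.2% of all tested probes lay above all sea level arrays at 7 km and 12.5% below. At 3 km these shares were 8.8% and 10.7%. The share with both altitudes on the same side was not counted. Of 38 proteoglycans and matrix glycoproteins on the array 18 were tested and 0 were called in any comparison with 9 or 8 arrays. Of all tested probes 0.12% were called at 7 km against sea level with 9 arrays and 0.308% with 8, and 0% in the other comparisons. With shares this low, 0 calls in lists of this size are near the background. The medians were 0.01 at 7 km and -0.06 at 3 km in both fits. Vcan, the proteoglycan versican that Adamts1 cuts, read 7.52, 7.53 and 7.60 at sea level, 7.44, 7.43 and 7.44 at 3 km, and 7.39, 7.41 and 7.43 at 7 km. All hypoxia arrays lay below all sea level arrays, by -0.13 ± 0.031 at 7 km (limma, adjusted p = 0.246) and -0.11 ± 0.031 at 3 km (adjusted p = 0.403). With 8 arrays these were -0.08 ± 0.014 and -0.07 ± 0.014 (limma, adjusted p = 0.11 and 0.238). Ccn2, the connective tissue growth factor, differed by -0.38 ± 0.14 at 7 km, or -0.26 ± 0.12 with 8 arrays. Sparcl1, the astrocyte glycoprotein hevin, differed by -0.13 ± 0.06, or -0.11 ± 0.066 with 8 arrays. Fn1, fibronectin, the ligand of several beta 1 integrins, was detected on 0 sea level arrays, 3 arrays at 3 km and 2 at 7 km. Fn1 thus reached the test through hypoxia arrays alone. Its fitted difference at 7 km was 0.18 ± 0.071 with 9 arrays and 0.13 ± 0.062 with 8 (limma, adjusted p = 0.414 and 0.465). As no sea level array was above background for Fn1, these values are no bounds.

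The adhesion machinery inside the cell also held no call, with 11 of 28 genes tested and a median of -0.03 at 7 km in both fits. The shares of all tested probes called at 7 km were the same 0.12% and 0.308%. Ptk2b, the focal adhesion kinase relative Pyk2, read 7.87, 7.73 and 7.57 at sea level, 7.93, 7.95 and 8.07 at 3 km, and 8.08, 7.87 and 8.01 at 7 km. Its difference at 7 km was 0.26 ± 0.087 with 9 arrays and 0.15 ± 0.065 with 8 (limma, adjusted p = 0.39 and 0.412). Dag1, the laminin receptor dystroglycan, differed by -0.24 ± 0.093 (adjusted p = 0.414), or -0.15 ± 0.077 with 8 arrays, with all hypoxia arrays below all sea level arrays. Cd47 and Cd81, membrane partners of integrins, differed by -0.30 ± 0.14 and -0.18 ± 0.08, or by -0.33 ± 0.17 and -0.20 ± 0.097 with 8 arrays.

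Of 37 other matrix processing enzymes and inhibitors 12 were tested and 0 were called, with a median of 0.07 at 7 km, or 0.05 with 8 arrays. Here too 0.12% of all tested probes were called at 7 km with 9 arrays and 0.308% with 8. Serpine2, protease nexin 1, which inhibits thrombin and plasminogen activators, read 9.41, 9.16 and 9.14 at sea level, 9.72, 9.67 and 9.43 at 3 km, and 9.78, 9.61 and 9.70 at 7 km. All hypoxia arrays lay above all sea level arrays, by 0.46 ± 0.10 at 7 km (limma, adjusted p = 0.214) and 0.37 ± 0.10 at 3 km (adjusted p = 0.399). With 8 arrays these were 0.43 ± 0.11 and 0.33 ± 0.11 (limma, adjusted p = 0.225 and 0.44). Plat, tissue plasminogen activator, which Serpine2 inhibits, read 7.73, 7.74 and 7.90 at sea level, 7.98, 7.89 and 7.90 at 3 km, and 8.01, 8.00 and 8.20 at 7 km. Its difference at 7 km was 0.27 ± 0.07 with 9 arrays and 0.27 ± 0.056 with 8 (limma, adjusted p = 0.281 and 0.149). Ctsk and Ctsl, cathepsins that degrade matrix proteins, differed at 7 km by 0.10 ± 0.038 and -0.50 ± 0.24, or by 0.09 ± 0.025 and -0.29 ± 0.22 with 8 arrays.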

How the data were processed

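RNA of 9 rat cortex samples was extracted with Trizol and labelled as biotin cRNA, per the labels. The authors deposited, per the file headers, a signal (intensity) and a detection p-value for each probe and array, with no scaling between arrays. No source used here names the scanner, its software or the slides. A second deposited table of intensity values, background subtracted and scaled in a way not stated, served as an alternative.

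Signals were corrected with neqc of limma 3.58.1 in R 4.3.3 (normexp with controls inferred from the detection p-values, offset 16, quantile normalization, log2). Testing was limited to probes detected (p-value below 0.05) on 3 or more arrays, which were 6656 with 9 arrays and 6499 with 8, leaving out sea level replicate 3. A mean per altitude was fitted with lmFit and eBayes. All adjusted p-values are limma's, by Benjamini-Hochberg over all tested probes. The fit was tested on simulated data with independent normal noise. These hold no array that stands apart and no floor, so they do not test the effect of either. The number of arrays limits the precision.

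Genes were named from the platform annotation, with the brightest probe kept. All 83 symbols are current in RefSeq. Given array by array were up to 5 tested genes per family, and up to 4 per pathway list were named, by smallest F test p-value. The genes and lists were chosen with earlier results of these data known, and Adamts1 and Col4a1 after their values were seen. A group below background on all arrays has only a bound: the brighter mean over the lowest detected level, or the probe's own where higher. Alternatives changed background, scaling, filter, fit and replicates. The labels name no pairing by replicate number, and the main fit used none.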

Additional observations from a re-analysis of the deposited data

Results flagged for a closer look

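Adamts1 was above background on 1 of the 6 arrays at 7 km or 3 km and on 0 of 3 arrays at sea level, although its probe was too dim for the test. Its detection p-values were 0.335, 0.435 and 0.171 at sea level, 0.101, 0.0752 and 0.192 at 3 km, and 0.0582, 0.0436 and 0.0545 at 7 km.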

How the results depend on the processing

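The count of called genes was 0 for each comparison and for the F test with 9 arrays. It stayed 0 in every other setting run, with 1 exception, and when any 1 array was left out (lowest and highest 0). Most settings, and all that left out 1 array with the filter kept, did not test Adamts1 and Col4a1, which were too dim. Only the settings with no filter could call these genes. The exception was chosen after seeing the data: with no background correction, no filter and without sea level replicate 3, 2 genes (Adamts1 and Col4a1) were called at 7 km against sea level and 1 (Adamts1) by the F test. The cause was not tested. Over all probes, that setting called 84 at 7 km, 57 at 3 km, 1 between the altitudes and 78 by the F test. Elsewhere the count of all probes at 7 km ranged from 0 to 176 (array weights, whose fit stopped before it converged), against 8 with 9 arrays. Under median scaling the median of all probes was -0.64 at 7 km and -0.55 at 3 km, against -0.01 and 0, and it turned the medians of the collagens (-0.16), integrins (-0.15), MMPs (-0.02) and TIMPs (-0.52) at 7 km below 0, all above that median. Of 51 gene differences, 30 changed sign in at least 1 alternative, 22 of them in one other than median scaling. At both altitudes against sea level, Col1a2, Col4a5, Col5a2, Itgb1, Mmp3 and Mmp9 kept their sign. Mmp9 was tested in 20 alternatives, fewer than the others. The stricter detection filter left 2 of the genes tested. The same-numbered arrays of different groups correlated by 0.01 to 0.30 in their deviations, and those with different numbers by -0.30 to 0.28. A fit with the replicate number as a block called 0 of the genes and 0 of all probes. Whether the numbers pair the samples is not known. Dim signal limits most of these values.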
